A study of Drosophila melanogaster with 2 samples.

Results

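miR-283, miR-304 and miR-12 are encoded by 3 neighbouring hairpins of the Drosophila melanogaster X chromosome, and their reads were followed in ovaries of 2 pelo genotypes. The hairpins dme-mir-283, dme-mir-304 and dme-mir-12 were taken by name, as members of a single intronic cluster, from the deposited miRNA count tables. These are 3 of the 235 hairpins listed, and each was found in both libraries. The cluster was chosen by its position and with its counts in these same libraries in view, so the differences between genotypes below are descriptions and carry no test. Ovaries were dissected by hand from females 3 to 5 days old, and RNAs of 18 to 30 nt were purified by size and sequenced on an Illumina instrument. The control library was labelled pelo1/+ and carries the pelo allele 1 over a normal copy. The mutant library was labelled peloPB60/1 and carries the alleles PB60 and 1, so the allele 1 is common to both groups. Pelota, the product of pelo, frees stalled ribosomes and is needed in the female germline. There was 1 library of each genotype, so the spread between ovary samples is not measured, and the number of females behind each library is not given in the sources used here.

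A miRNA is cut from the hairpin of a longer primary transcript, first in the nucleus by Drosha and then in the cytoplasm by Dicer-1, and guides an Argonaute protein to mRNAs that pair with its seed. Hairpins that lie side by side on one strand are often cut from the same primary transcript, while the amount of each mature miRNA also depends on how well its hairpin is cut and how long the product lasts. Members of the cluster have been linked in the fly wing to the control of Hedgehog pathway components.

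In the annotation of assembly BDGP6, all 3 hairpins lie on the plus strand of the X chromosome inside the gene Gmap, which encodes a protein of the Golgi apparatus. They occupy a single intron of 2124 nt in each of the 4 annotated Gmap transcripts, and none touches a Gmap exon. The order along the transcript is mir-283, mir-304 and mir-12. The mir-283 hairpin is annotated at 100 nt, that of mir-304 at 88 nt and that of mir-12 at 74 nt. Mir-283 is separated from mir-304 by 903 nt, and mir-304 from mir-12 by 426 nt. The last hairpin ends 171 nt before the next exon. The submitters' processing notes name the build BDGP5, so distances are given here without coordinates.

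The miRNA tables held 1819781 reads in pelo1/+ and 1999224 reads in peloPB60/1, and levels are given below as reads in 1000000 miRNA reads of the same library (CPM). Each read is a short RNA of the same size class, so the 3 miRNAs were compared by reads without a correction for length. How evenly different miRNAs were captured in the libraries was not measured, so levels and orders of different hairpins are those of reads. A difference between the libraries was called when it reached 2-fold and its 95% counting interval left out no difference. Follicle cell miRNAs (miR-989, miR-318, miR-994) were abundant in both libraries, as the ovary label implies, at 26.9% of control reads and 45.9% of mutant reads, but they did not move together. miR-989 was higher in the mutant (log2 ratio 1.35), miR-994 was lower, from 8.55% to 0.660% of the reads (-3.69), and miR-318 was called neither (-0.05). The 5 listed miRNAs of the female germline held 5.51% and 4.15%, most of it from miR-184, at 3.28% and 3.72%. The other members, miR-310 to miR-313 of a single cluster, were called lower, with log2 ratios from -2.91 to -1.21, and 3 of these 4 stayed called with TMM or median-of-ratios factors. The muscle miRNAs miR-1 and miR-133 held 0.222% and 0.691%, nearly all of it from miR-1, which was called higher (log2 ratio 1.64). miR-133 had only 12 reads in pelo1/+ and 12 in peloPB60/1. The 3 neuronal miRNAs held 41 and 67 reads, and 6 testis miRNAs held 0.0306% and 0.0361%. Whole ovaries mix germline, follicle cells and muscle sheath, so fewer cells of a type and less RNA per cell cannot be told apart. The part of these shifts in the values of the cluster was not tested.

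The cluster gave a smaller share of the miRNA reads in the mutant, and most of the difference came from miR-12. Of the pooled difference in CPM, miR-12 made up 83.9%, miR-304 13.1% and miR-283 3.03%. In pelo1/+ the 3 hairpins held 59184 reads, 3.25% of all miRNA reads (95% Clopper-Pearson interval 3.23 to 3.28). In peloPB60/1 they held 29896 reads, or 1.495% (1.48 to 1.51). The pooled level was 2.17-fold lower in peloPB60/1, with a log2 ratio of -1.12 (95% interval -1.14 to -1.10). Intervals here and below cover counting error only, because the reads carry no molecular identifiers and biological spread is not measured.

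The pooled call depended on the scaling. The pooled log2 ratio was -0.95 when scaled to the miRNA and piRNA tables together, -0.87 with TMM factors, -0.90 with median-of-ratios factors and -0.55 with miR-989 left out of the total, all under 2-fold. miR-989 alone took 17.4% of the miRNA reads in pelo1/+ and 44.4% in peloPB60/1, which leaves a smaller share for all other hairpins together in the mutant. Leaving it out moved all log2 ratios by 0.57, and the median over all hairpins from -0.34 to 0.23.

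miR-12 had the most reads of the 3 in the control. It had 37184 reads in pelo1/+, a level of 20433 CPM, and 11395 reads in peloPB60/1, a level of 5700 CPM. Its level was 3.58-fold lower in the mutant (log2 ratio -1.84, 95% interval -1.87 to -1.81). By rank it went from the 9th to the 20th most abundant hairpin. In pelo1/+ it stood between miR-184 at 32758 CPM, which acts in the female germline, and miR-8 at 20287 CPM. In peloPB60/1 its neighbours in rank were miR-984 at 5772 CPM and miR-317 at 5560 CPM. The control count of miR-12 and that of miR-8, at 36918 reads, were close enough that counting error spans ranks 9 to 10, and the mutant rank likewise spans 19 to 20.

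miR-304 had the fewest reads of the 3 in both libraries. It had 5726 reads (3147 CPM) in pelo1/+ and 1685 reads (842.8 CPM) in peloPB60/1. Its level was 3.73-fold lower in the mutant, with a log2 ratio of -1.90 and a 95% interval of -1.98 to -1.82. Its rank was 27 in the control and 36 in the mutant. The hairpins next to it in the control were miR-9b and miR-34, whose own log2 ratios were 2.93 and 3.02, so neighbours in rank in the control lay far apart in the mutant. In the mutant it stood between miR-87 at 1069 CPM and miR-303 at 736.8 CPM.

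miR-283 kept nearly the same level. It had 16274 reads (8943 CPM) in pelo1/+ and 16816 reads (8411 CPM) in peloPB60/1. The log2 ratio was -0.09 (95% interval -0.12 to -0.06), which is 94.1% of the control level, and it was above 0 with the total of both tables, TMM factors, median-of-ratios factors, without miR-989 and without the 10 most abundant hairpins. The highest of these values was 0.48, without miR-989, and none reached 2-fold. Its rank was 19 in the control and 14 in the mutant, so miR-283 moved up the order while the other members moved down. In both libraries the hairpin next above it was miR-318, a follicle cell miRNA, at 9252 and 8912 CPM. The hairpin next below it was let-7 at 8335 CPM in pelo1/+ and miR-275 at 7867 CPM in peloPB60/1.

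**Figure D1:**
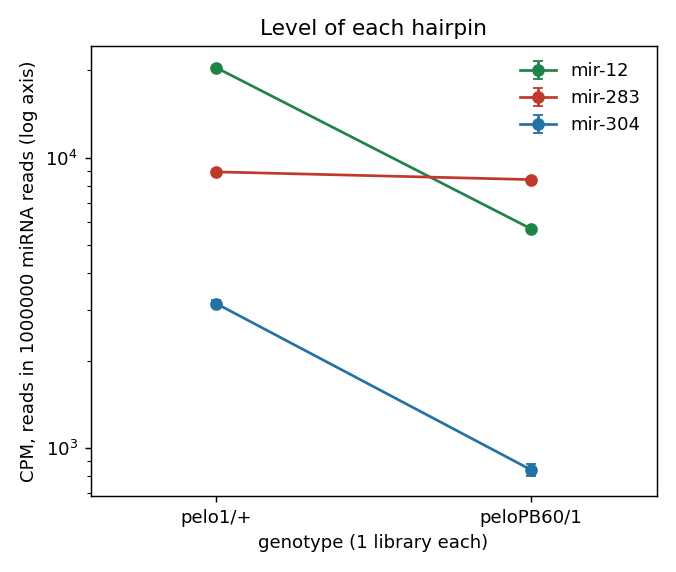
Level of each hairpin in CPM (log axis) in the pelo1/+ and the peloPB60/1 library, 1 library each; bars are 95% counting intervals, mostly smaller than the points. The lines of miR-12 (20433 to 5700) and miR-304 (3147 to 842.8) run in parallel, while that of miR-283 is nearly flat (8943 to 8411) and crosses that of miR-12; its slight slope is downward here and upward with the total of both tables, TMM factors, median-of-ratios factors, without miR-989 or without the 10 most abundant hairpins.

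The order of the levels therefore differed between the libraries. In pelo1/+ it was miR-12, miR-283, miR-304, and in peloPB60/1 it was miR-283, miR-12, miR-304. Neighbours in each order were separated by more than their counting intervals, and their spread over samples is unknown. These orders, and the ratios that follow, do not depend on how the libraries are scaled.

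miR-12 and miR-304 had nearly the same ratio to each other in both libraries. There were 6.49 reads of miR-12 per read of miR-304 in pelo1/+ (95% interval 6.32 to 6.68) and 6.76 in peloPB60/1 (6.42 to 7.12). The mutant ratio was 1.04 times the control ratio, with an interval of 0.982 to 1.10 that includes no change. This interval covers counting error at the depth of these 2 libraries, and the spread of the ratio between ovary samples is not measured.

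miR-283 changed its ratio to both of the others. Per read of miR-12 there were 0.438 reads of miR-283 in pelo1/+ (95% interval 0.430 to 0.446) and 1.48 in peloPB60/1 (1.44 to 1.51), a 3.37-fold higher ratio (3.27 to 3.48). Per read of miR-304 there were 2.84 reads of miR-283 in the control (2.76 to 2.93) and 9.98 in the mutant (9.49 to 10.5), a 3.51-fold higher ratio (3.31 to 3.72). miR-283 is also the first of the 3 hairpins in the order along the transcript, and a link between that order and the ratios was not tested.

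As shares of the reads of the cluster, miR-283 took 27.5% in pelo1/+ (95% Clopper-Pearson interval 27.1 to 27.9) and 56.2% in peloPB60/1 (55.7 to 56.8). miR-12 took 62.8% in pelo1/+ (62.4 to 63.2) and 38.1% in peloPB60/1 (37.6 to 38.7). miR-304 took 9.67% (9.44 to 9.92) and 5.64% (5.38 to 5.90). The share of miR-283 was higher by 28.8 percentage points in the mutant. With miR-283 set aside, miR-12 differed by 0.46 percentage points between the libraries, in the direction opposite to its difference among the 3.

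**Figure D2:**
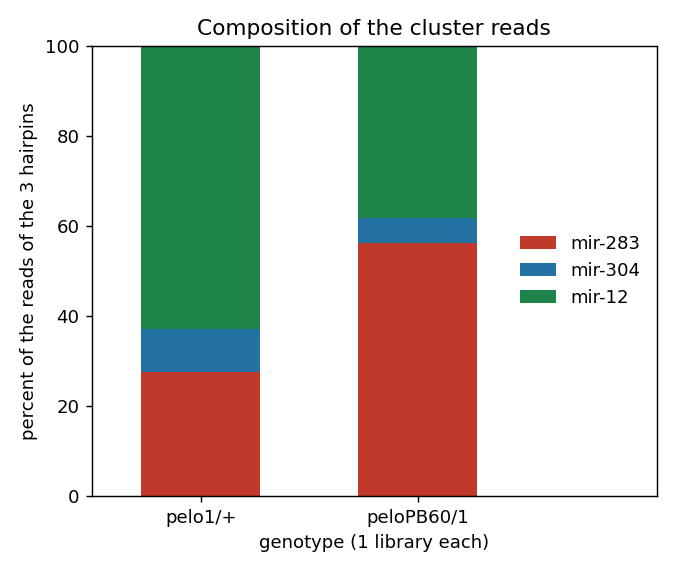
Percent of the reads of the 3 hairpins that each contributed, in 1 library per genotype, stacked to 100. miR-283 takes 27.5% in pelo1/+ and 56.2% in peloPB60/1; miR-12 takes 62.8% and 38.1%, and miR-304 takes 9.67% and 5.64%.

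Set against all hairpins, 2 of the 3 members were called lower and 0 were called higher. Of 108 hairpins with at least 50 reads summed over both libraries, 34 (31.5%) were called lower and 17 (15.7%) higher, 51 (47.2%) in either direction. All 3 members passed this filter. Since the cluster was picked with these values known, nothing is read from 2 of 3 against 31.5%. The members had a median log2 ratio of -1.84, beside -0.34 for all 108, whose quartiles were -1.26 and 0.39. In the order of log2 ratios, 14 hairpins lay below miR-304, 16 below miR-12 and 63 below miR-283. The lower calls of miR-12 and miR-304 at 2-fold stayed in each of the 6 other scalings tried. At a threshold of 4-fold neither is called, since their levels were 3.58-fold and 3.73-fold lower.

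**Figure D3:**
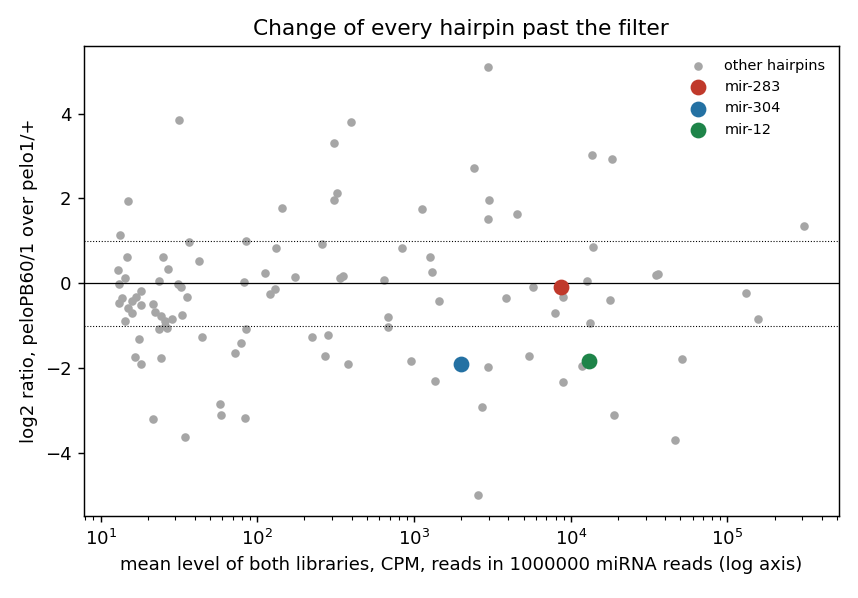
Log2 ratio of peloPB60/1 over pelo1/+ against the mean level of both libraries in CPM (log axis) for the 108 hairpins with at least 50 summed reads; dotted lines mark 2-fold. miR-12 and miR-304 lie at -1.84 and -1.90, and miR-283 at -0.09, a value that turns positive with the total of both tables, TMM factors, median-of-ratios factors, without miR-989 or without the 10 most abundant hairpins.

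The hairpins whose change was most like that of each member were found by the smallest difference in log2 ratio over the 2 libraries. For miR-12 these were miR-92b (-1.82), miR-305 (-1.80) and miR-2b-1 (-1.90). The level of miR-305 was 79404 CPM in pelo1/+ and 22872 CPM in peloPB60/1, while miR-2b-1 had only 52 and 15 reads and a near-identical copy, miR-2b-2, to which some of them may belong. For miR-304 they were miR-2b-1, miR-279 (-1.91) and bantam (-1.94), the last a growth regulator at 18738 and 4873 CPM. For miR-283 they were miR-964 (-0.09), from 61 and 63 reads, miR-317 (-0.10) and miR-318 (-0.05). Within 0.1 log2 units there were 7 other hairpins for miR-12, 6 for miR-304 and 7 for miR-283, of 107 others in each case. Agreement this close over 2 libraries was therefore not limited to hairpins of the same cluster.

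Unequal change within a cluster was also found elsewhere. There were 16 clusters of neighbouring hairpins, on one strand with at most 10000 bp between neighbours, that had at least 2 members past the filter. The range of log2 ratios from lowest to highest member was 1.81 for mir-283, mir-304 and mir-12, with 8 clusters wider and 7 narrower. Among 59 pairs of hairpins within these clusters, the median difference in log2 ratio was 1.55. Many of these pairs came from the clusters of 6, miR-310 to miR-992 and miR-959 to miR-964. Some of their hairpins had few reads, such as miR-992 with 34 and 20 and miR-960 with 65 and 34, so counting error widens their differences. The pair of miR-304 and miR-12 differed by 0.06, and 2 pairs were closer. Those were miR-312 with miR-313 and miR-982 with miR-303, at differences of 0.03 and 0.05.

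Of the 3 clusters set beside it, that of miR-275 and miR-305 had the most similar range, 1.46, but from only 2 members. In it miR-305 was at -1.80 and miR-275 at -0.33, a value that turns positive without miR-989. A cluster on another chromosome had log2 ratios of -0.10 for miR-317, -1.96 for miR-277 and 3.02 for miR-34, so a member was lower and another higher. The value of miR-317 turns positive in each of the other scalings but upper quartile. The other X-linked cluster of this size, miR-982, miR-303 and miR-984, was higher in all members, at 3.86, 3.81 and 5.09, where miR-982 rests on 7 and 119 reads. No difference between clusters was tested.

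**Figure D4:**
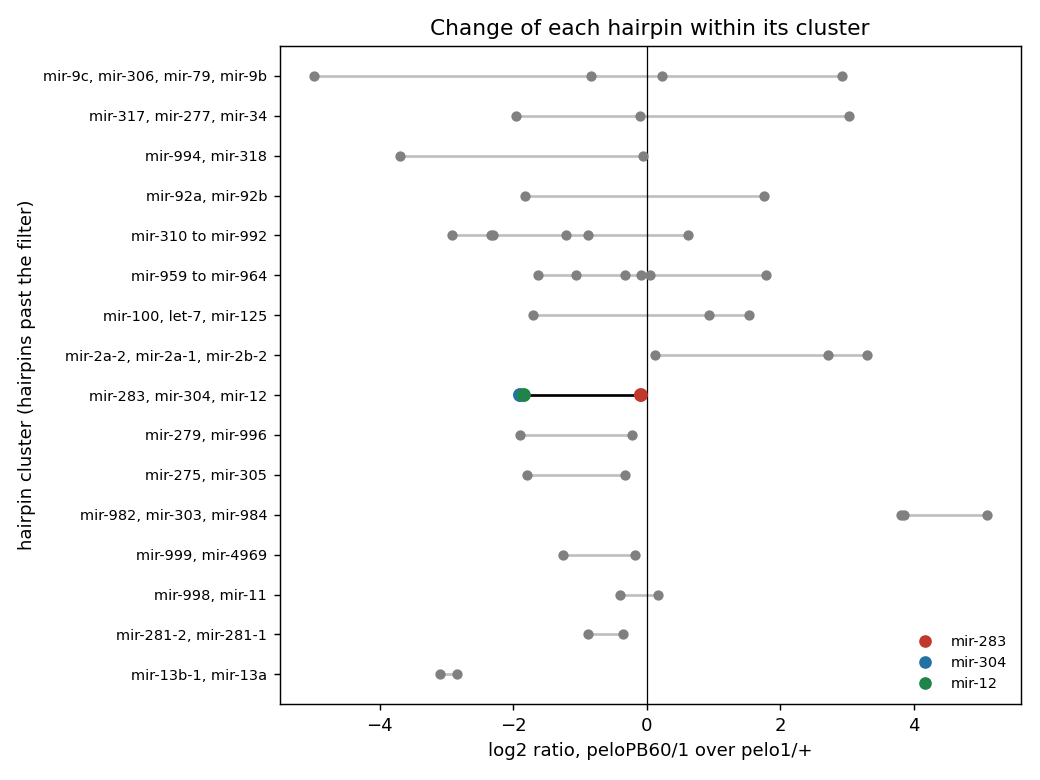
Log2 ratio of peloPB60/1 over pelo1/+ for each hairpin past the filter, 1 row per cluster, ordered from the widest range at the top to the narrowest. Rows hold 2 to 6 hairpins, and a range can only widen as hairpins are added. The row of mir-283, mir-304 and mir-12 (range 1.81) lies ninth of 16, with miR-304 and miR-12 side by side near -1.9 and miR-283 near 0, where its sign depends on the scaling.

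By position, the cluster was the main source of X-linked miRNA reads in both libraries, with a larger share in the control. The 47 X-linked hairpins held 64080 reads in pelo1/+, of which 92.4% came from these 3, and 47873 reads in peloPB60/1, of which 62.4% did. The other 44 held 4896 reads in pelo1/+ and 17977 in peloPB60/1, of which miR-984 alone had 307 and 11539. Apart from the 3 members, 12 X-linked hairpins passed the filter. Of those, 3 were called higher, 3 lower and 6 neither, with a median log2 ratio of -0.22. On the other chromosomes 14 of 91 were higher and 28 lower, with a median of -0.33. Both medians were under 2-fold, and with miR-989 left out both move by 0.57 to above 0. With TMM or median-of-ratios factors, or without the 10 most abundant hairpins, the X-linked median turns slightly positive. That of the other chromosomes stays below 0 in these settings.

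Other hairpins that sit in introns were counted beside the cluster. Of 38 hairpins past the filter that lie inside a protein-coding gene on its strand without touching an exon, the members left aside, 5 were higher, 9 lower and 24 neither, with a median log2 ratio of -0.29, beside 17 higher and 34 lower of all 108 with a median of -0.34. In a list of 6 hairpins with intronic hosts in mind, 1 was lower, 0 were higher and 5 were neither when scaled to the miRNA total. miR-308, in a ribosomal protein gene (RpS23), was the lower member at -3.11. miR-11 and miR-998 share the host E2f1, a cell cycle transcription factor, and had log2 ratios of -0.41 and 0.17, from 2976 and 2465 reads and from 601 and 742 reads. miR-7, in HnRNP-K, had 0.06, and miR-33, in SREBP, a regulator of lipid synthesis, had -0.35. miR-274, for which no host on the same strand was found in the annotation, had 0.83. With miR-989 left out these values move up by 0.57, so that the signs of miR-11 and miR-33 turn and miR-274 passes 2-fold. The shifts with the total of both tables (0.17), TMM factors (0.25) and median-of-ratios factors (0.23) also take miR-274 past 2-fold. So does leaving out the 10 most abundant hairpins (0.23), so the count of 0 higher depends on the scaling. The mRNA of Gmap was not measured in these libraries, so its level cannot be set beside those of the 3 hairpins.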

How the data were processed

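Small RNA libraries of pelo1/+ and peloPB60/1 ovaries were compared, 1 of each, grouped by the genotype label. The authors deposited raw counts per miRNA hairpin or piRNA feature, whole numbers with no normalization, and the 2 arms of a hairpin were not counted apart. The submitters' processing notes name Bowtie 0.12.7 and BDGP5 but give no roles. Mismatches, multiple matches, trimming and library totals were not stated in the sources used here. A hairpin absent from a table got 0 counts.

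Counts were divided by the total of the miRNA table (CPM). Log2 ratios used 0.5 added to each count, with the exact conditional 95% interval of the counts, for hairpins with at least 50 summed counts. A count of 0 allows up to 3 counts, 1.65 CPM in pelo1/+ and 1.50 CPM in peloPB60/1. Changes of a ratio between hairpins had exact conditional intervals of the 4 counts. No p-value was computed. Hairpins were placed by name in the Ensembl annotation of BDGP6, which held 232 of 235. edgeR 4.0.16 and DESeq2 1.42.0 gave scaling factors only. The code for intervals and calls was run on simulated Poisson counts (Python 3.11.15, scipy 1.17.1). These held counting error only, with no spread between samples, so they cannot show whether the calls would recur in other ovary samples. Members, lists, comparison clusters and alternatives were chosen with earlier results of these data known. Named hairpins were the members, their neighbours in rank, the 3 closest in log2 ratio, the comparison clusters and the intronic list. Counts by chromosome and over all intronic hairpins, and calls of marker hairpins under other scalings, were added later. miRNA sequences were not used here, so hairpins with a shared seed were not looked up.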

Additional observations from a re-analysis of the deposited data

How the results depend on the processing

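No paired analysis was possible because there was a single library per genotype, which also means that neither library can be left out. Of 81 values under alternatives, 46 stayed within the counting interval or 1.5 times the count, and 35 did not. The sign changed in 6, of which 5 were the small log2 ratio of miR-283 and 1 was a share of miR-12. Most moves came from scaling, which shifts all log2 ratios alike. The log2 ratios of miR-283, miR-304, miR-12 and the pool were 0.084, -1.73, -1.67 and -0.95 with the total of both tables. They were 0.16, -1.65, -1.59 and -0.87 with TMM factors, and 0.14, -1.67, -1.62 and -0.90 with median-of-ratios factors. They were 0.48, -1.33, -1.27 and -0.55 without miR-989, and 0.14, -1.67, -1.61 and -0.89 without the 10 most abundant hairpins. Upper quartile scaling left each within its interval, as did added counts of 0 or 1 for the 3 hairpins, which were not tried on the pool. The shifts were 0.17, 0.25, 0.23, 0.57 and 0.23 in that order.

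The 3 hairpins held 0.840% and 0.435% of the reads of both tables in pelo1/+ and peloPB60/1, 3.94% and 2.69% of miRNA reads without miR-989, and 16.8% and 9.02% without the 10 most abundant hairpins. The mutant share was the lower in each case. Among the 3, the difference in share for miR-283 was 16.9 percentage points with miR-12 left out. For miR-304 it was -0.46 without miR-283 and -16.9 without miR-12. For miR-12 it was -29.2 without miR-304 and turned to 0.46 without miR-283, since shares of a whole depend on its parts. The ratios between hairpins stayed within their intervals with 0.5 added. miR-304 was at rank 37 in peloPB60/1 when near-identical copies were summed, and the other ranks did not move. At 4-fold, 8 hairpins were called higher and 11 lower, with miR-12 and miR-304 not among them. Without miR-989, at 2-fold, there were 27 higher and 24 lower. The split of higher and lower calls was 23 and 28 with TMM or median-of-ratios factors and 23 and 29 with the total of both tables. Clusters with a wider range numbered 11 of 21 with a filter of 10 counts, 7 of 14 with a filter of 200 and 7 of 15 with at most 3000 bp between neighbours. The range of the cluster itself could not move under these settings.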
